A study of Homo sapiens with 8 samples.

Results

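Adhesion G protein coupled receptors are membrane receptors with a long extracellular part, joined to a core that crosses the membrane and couples to G proteins. The 9 genes described here, ADGRG1, ADGRG6, ADGRL4, ADGRF5, ADGRL1, ADGRL2, ADGRL3, ADGRE5 and ADGRG3, were matched by gene name in a table of 30386 genes that also held 19 other genes of the family, 28 in all. They were chosen on the same iREC against iEC values that are given below, so their differences are a description and carry no test. The cells were derived from WTC-TJP1, an established line of human induced pluripotent stem cells, and had been differentiated into endothelial cells (iEC, 4 samples) or retinal endothelial cells (iREC, 4 samples) before their messenger RNA was sequenced. Both groups came from that single line and were analysed at passage 1, with samples lettered C to F in each. The labels name no agent, added gene or deletion that sets the groups apart, and nothing in them says that the samples of a group were separate cultures, so the p-values measure only the spread between these samples, which may be technical.

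Adhesion receptors of this class bind matrix proteins or membrane proteins of neighbouring cells through the extracellular part. Most cut themselves during maturation at a proteolysis site just outside the membrane, and removal of the outer fragment exposes a tethered peptide that can activate the core. In endothelium, ADGRF5 and ADGRL4 are known as receptors enriched in vessels, and ADGRA2 as a co-receptor for Wnt7 ligands in brain vessels. ADGRG6 is best known as a receptor that Schwann cells need to make myelin.

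All 9 genes encode the cysteine-rich motif of the proteolysis site in their principal coding transcript, as do 19 of the 27 family genes of the table with a coding transcript. The letters are shown for the pair of genes with the largest differences (ADGRG1 and ADGRG6), the pair with the highest levels in iEC (ADGRF5 and ADGRL4) and the member whose site departs from the usual threonine (ADGRE5). Each sequence has 39 bases, written 5′ to 3′ on the coding strand from GENCODE 29 transcripts on GRCh38, and the capitals mark the 3 codons around the cut, which lies after the second of them.
ADGRG1, chr16:57656579-57656617, plus strand: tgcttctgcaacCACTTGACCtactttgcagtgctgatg
ADGRG6, chr6:142411373-142411411, plus strand: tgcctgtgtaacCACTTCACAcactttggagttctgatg
ADGRF5, chr6:46858912-46858950, minus strand: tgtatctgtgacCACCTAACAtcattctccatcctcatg
ADGRL4, chr1:78921631-78921669, minus strand: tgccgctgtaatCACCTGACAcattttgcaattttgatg
ADGRE5, chr19:14404506-14404544, plus strand: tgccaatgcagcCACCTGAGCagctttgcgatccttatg
The capitals encode histidine, leucine and threonine in ADGRG1, ADGRF5 and ADGRL4, and the same holds for ADGRL1, ADGRL2, ADGRL3 and ADGRG3. ADGRG6 has phenylalanine in place of the leucine, and ADGRE5 has serine in place of the threonine. Each of the 5 windows lies within 1 coding exon. The share of the protein that lies before the cut ran from 45.4% in ADGRG3 to 73.6% in ADGRF5, with 55.1% in ADGRG1 and 67.2% in ADGRG6. The counts are per gene, so they do not tell whether the exon of this site was read or the protein was cut.

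Levels of a gene across samples are given as CPM, counts relative to library size after TMM scaling, and levels of different genes as the authors' FPKM, which is also per length. The iEC libraries held 14877502 to 16971865 counts and the iREC libraries 13739364 to 15987839, so that 3 counts, taken as the floor of detection, stood for 0.178 to 0.215 CPM. All 12 endothelial markers, PECAM1, CDH5 and KDR among them, were counted in both groups. Of these, 8 were called by edgeR, 5 lower in iREC (PECAM1, CDH5, ESAM, EGFL7 and ROBO4, with log2 fold changes from -1.57 to -0.76) and 3 higher (TEK, EMCN and CLDN5, from 0.79 to 6.68). No list used here tells retinal from other endothelium, so the retinal label was not checked. The library iREC F stood apart. Its 12 endothelial markers summed to 4575 CPM, against 7552 to 9574 in iEC and 7898 to 10268 in the other iREC samples, while its 8 epithelial markers summed to 4867 CPM, against 307 to 1078 in the other iREC samples and 422 to 1227 in iEC. KRT8, at 3025 CPM, and KRT18, at 1538 CPM, made up most of the epithelial sum of iREC F. EPCAM did not exceed 3.28 CPM in any iREC sample. CLDN7, the only epithelial marker called, was lower in iREC, at a log2 fold change of -3.34. The 12 mural and mesenchymal markers of iREC F summed to 5116 CPM. That sum was 1539 to 2346 CPM in the other iREC samples and 1981 to 2748 CPM in iEC. MCAM, with a mean of 1921 CPM, made up most of that sum in iEC and was lower in iREC. TAGLN was higher in all iREC samples, at 318 to 870 CPM against 25.4 to 58.2 in iEC. The median log2 fold change of the 10 tested mural and mesenchymal markers was 2.17, but the list did not move together. Of the 10, 2 were called higher (TAGLN and LUM), 2 lower (MCAM and RGS5) and 6 were not called. The groups did not overlap for only 2 of them. The 6 pluripotency markers of iREC F summed to 505 CPM, against 53.3 to 173 in the other iREC samples and 39.0 to 91.0 in iEC. LIN28A, at 482 CPM, made up most of that sum in iREC F. Values without iREC F are given where they bear on a member. In bulk RNA, fewer cells of a type and less RNA per cell cannot be told apart.

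In outline, ADGRG6 was high in iREC and low in iEC, and ADGRG1 the reverse. ADGRL1 and ADGRL3 were low in both and higher in iREC, ADGRL2 was abundant in both and modestly higher in iREC, and ADGRL4 was lower in iREC. ADGRF5, the most abundant member by mean FPKM in either group, and ADGRE5 did not differ beyond their spread, and ADGRG3 was at or near 0. By edgeR's quasi-likelihood test at an adjusted p under 0.05, 25.0% of the 15330 tested genes were called, 13.2% higher and 11.7% lower in iREC. Of the 9 members 8 passed the filter on low counts, and 6 of these were called, 4 higher and 2 lower. The groups did not overlap for 5 members, and for 29.1% of all tested genes. The members were chosen on this contrast, so nothing is read from these counts. Their median log2 fold change was 0.24, beside 0.02 over all tested genes.

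**Figure D1:**
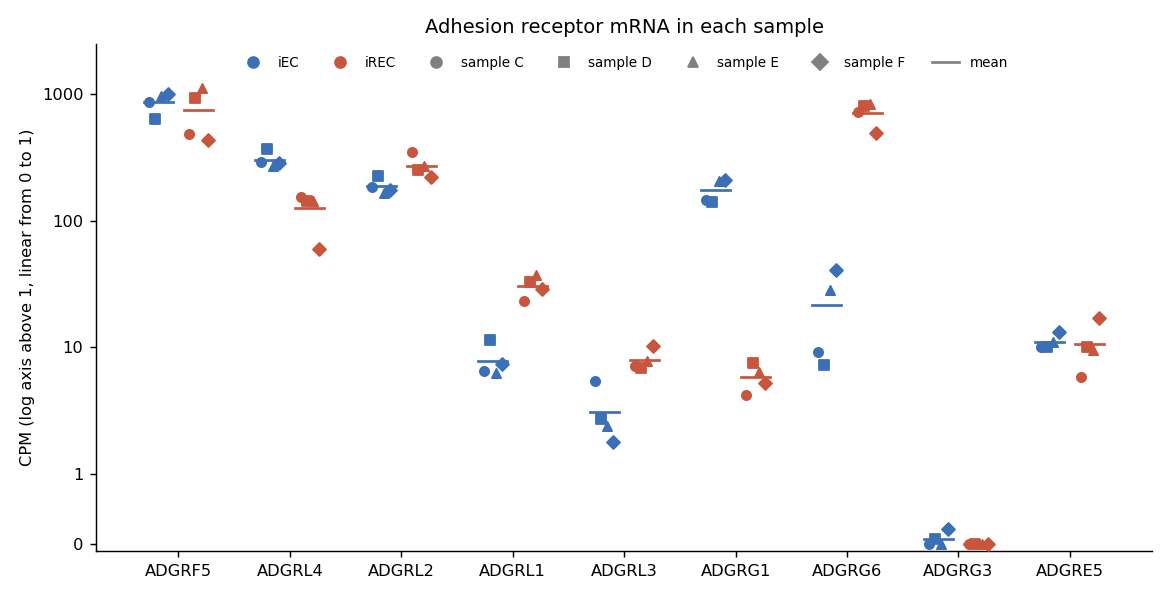
Level of the 9 members in each of the 8 samples, in CPM on an axis that is logarithmic above 1 and linear below, with iEC in blue, iREC in red, a symbol for each sample letter and a line at each group mean. ADGRG1 and ADGRG6 trade places, with ADGRG1 at 141 to 210 CPM in iEC and 4.19 to 7.49 in iREC, and ADGRG6 at 7.27 to 40.9 in iEC and 493 to 840 in iREC.

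The G subfamily held the largest differences. ADGRG1, also called GPR56, is a receptor for collagen III and tissue transglutaminase, best known from the developing cortex. It lies at chr16:57610652-57665580 on the plus strand. Its level was 146, 141, 208 and 210 CPM in iEC samples C to F, and 4.19, 7.49, 6.41 and 5.17 CPM in iREC samples C to F. The groups stood far apart, and the lowest iEC sample had 2230 counts against 105 in the highest iREC samples. The mean was 176 ± 37.7 CPM (SD, n = 4) in iEC and 5.82 ± 1.44 CPM (SD, n = 4) in iREC, 30.3-fold lower, with a log2 fold change of -4.92 ± 0.24 (SE).

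ADGRG6, also called GPR126, binds collagen IV, laminin 211 and the prion protein and raises cyclic AMP in Schwann cells. It lies at chr6:142301854-142446266 on the plus strand. It was counted at 9.17, 7.27, 28.3 and 40.9 CPM in iEC C to F and at 719, 804, 840 and 493 CPM in iREC C to F. The iEC samples fell into a lower pair, C and D, and a higher pair, E and F, while iREC F was the lowest of its group and still far above every iEC sample. The means of 21.4 ± 16.1 CPM (SD, n = 4) and 714 ± 156 CPM (SD, n = 4) gave a 33.3-fold higher level in iREC, a log2 fold change of 5.06 ± 0.58 (SE). Leaving out single samples moved it between 4.75 and 5.57, and without iREC F it was 5.20.

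Set against each other within a sample, the FPKM of ADGRG1 was 5.01 to 19.0 times that of ADGRG6 in iEC. In iREC the FPKM of ADGRG6 was 97.3 to 175 times that of ADGRG1. Each of the 8 samples thus showed the order of its group, in the same values that both genes were chosen on.

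The 300 bases that surround the RefSeq start of both genes, most of them before it (GRCh38.p14), are shown because these members had the largest differences, in opposite directions. Capitals mark matches on either strand to GGAAGT (read as ACTTCC on the minus strand) or to CCGGAA, which are forms of the motif of ETS factors, a family with members that act in endothelium.
ADGRG1, chr16:57619488-57619787, plus strand: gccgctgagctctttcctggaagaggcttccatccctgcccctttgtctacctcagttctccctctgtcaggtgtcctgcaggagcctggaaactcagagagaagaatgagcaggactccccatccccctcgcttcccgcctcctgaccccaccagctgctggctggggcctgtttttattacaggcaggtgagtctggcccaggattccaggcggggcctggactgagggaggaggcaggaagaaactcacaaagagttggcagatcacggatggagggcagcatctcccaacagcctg
ADGRG6, chr6:142301757-142302056, plus strand: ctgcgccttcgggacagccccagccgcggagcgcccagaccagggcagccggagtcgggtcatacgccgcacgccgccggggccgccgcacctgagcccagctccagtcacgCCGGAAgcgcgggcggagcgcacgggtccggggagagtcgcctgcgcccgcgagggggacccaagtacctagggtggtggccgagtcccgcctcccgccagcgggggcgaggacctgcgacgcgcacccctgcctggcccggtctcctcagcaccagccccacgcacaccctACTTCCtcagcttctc
The windows differ in base composition. That of ADGRG1 is 59.7% G and C with 5 CpG, and that of ADGRG6 is 75.3% G and C with 36 CpG, where the median of 27305 RefSeq promoters was 58.3% and 14.0 CpG. ADGRG6 has 1 match to each ETS form and ADGRG1 has none, and 23.2% and 17.6% of all promoters hold the respective form. A GC box, GGGCGG on either strand, is in the ADGRG6 window and in 44.6% of promoters. A match is a description of the letters only. ADGRG1 has 77 annotated transcripts and ADGRG6 has 14, and counts per gene do not tell which start was used.

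ADGRG3, also called GPR97 and best known from granulocytes, lies 2606 bases beyond ADGRG1 on the same strand, at chr16:57668187-57689378. It had 0, 1, 0 and 3 counts in iEC C to F and 0 in every iREC sample. Both groups are at or under the floor of 3 counts, so no fold is given and no difference was detectable at this depth. ADGRG5, which lies 18970 bases before ADGRG1 on that strand, was also scarce, with 14, 12, 18 and 7 counts in iEC and 2, 4, 1 and 1 in iREC. It did not pass the filter. When no filter was used, edgeR gave it a log2 fold change of -2.55 and an adjusted p of 0.0232, and all 4 iREC samples lay below every iEC sample.

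The L subfamily holds the latrophilins ADGRL1, ADGRL2 and ADGRL3, which bind teneurins and FLRT proteins on neighbouring cells and are best known from synapses, and ADGRL4, also called ELTD1, an endothelial receptor studied in sprouting vessels. ADGRL2 (chr1:81306160-81992436, plus strand) was the abundant latrophilin. Its level was 184, 228, 164 and 175 CPM in iEC and 348, 252, 269 and 221 CPM in iREC, and the groups overlap because iEC D lies above iREC F. The means were 188 ± 27.9 and 273 ± 54.1 CPM (SD, n = 4 each), with a log2 fold change of 0.54 ± 0.17 (SE). It passed the threshold in 7 of 15 alternative analyses and missed it, among others, without iEC C, E or F and without iREC C, D or E.

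ADGRL1 (chr19:14147743-14206187, minus strand) was counted at 6.44, 11.4, 6.27 and 7.30 CPM in iEC and at 23.3, 32.8, 37.0 and 28.9 CPM in iREC. Every iREC sample lay above every iEC sample, with means of 7.85 ± 2.40 and 30.5 ± 5.83 CPM (SD, n = 4 each) and a log2 fold change of 1.96 ± 0.24 (SE). An antisense gene, AC022098.1, overlaps 23525 bases of it and averaged 2.69 CPM in iEC and 4.13 CPM in iREC. Whether the counting used strand is not given in the sources used here, so reads of the overlap cannot be told apart.

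ADGRL3 (chr4:61201258-62078335, plus strand) was the least abundant latrophilin, at 5.40, 2.72, 2.37 and 1.79 CPM in iEC and 7.13, 6.85, 7.76 and 10.2 CPM in iREC. The groups do not overlap, and iEC C is the highest iEC sample, next to iREC D. The means were 3.07 ± 1.60 and 7.99 ± 1.53 CPM (SD, n = 4 each), with a log2 fold change of 1.38 ± 0.35 (SE). Without iEC E it missed the threshold. The 3 latrophilins thus all had higher means in iREC, by ratios of 3.89 for ADGRL1, 2.60 for ADGRL3 and 1.45 for ADGRL2.

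ADGRL4 (chr1:78889764-79006718, minus strand) went the other way. Its level was 289, 366, 273 and 288 CPM in iEC and 155, 143, 144 and 59.9 CPM in iREC. All iREC samples lay below all iEC samples, and iREC F lay apart from its own group. The means were 304 ± 42.0 and 126 ± 44.1 CPM (SD, n = 4 each), 2.42-fold lower in iREC, with a log2 fold change of -1.28 ± 0.27 (SE) and of -1.05 without iREC F. On chromosome 1, ADGRL4 and ADGRL2 are neighbours among protein-coding genes, 2299441 bases apart on opposite strands, and differed in opposite directions. The endothelial markers PECAM1, EGFL7 and ROBO4 moved with ADGRL4, at log2 fold changes of -1.57, -1.22 and -1.33, and TEK and EMCN went the other way, at 3.82 and 6.68.

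The low endothelial marker sum of iREC F falls together with its low ADGRL4. As a share of that sum, a measure chosen after the values were seen, ADGRL4 was 3.25% to 3.82% in iEC and 1.97%, 1.72%, 1.40% and 1.31% in iREC C to F, so that iREC F no longer lay apart. On the same measure ADGRG6 was 0.0759% to 0.462% in iEC and 8.18% to 10.8% in iREC, a narrower range in iREC than its CPM showed. ADGRL2 was 1.97% to 2.39% in iEC and 2.62% to 4.83% in iREC and did not overlap between groups on this measure, while ADGRF5 did, at 6.69% to 12.7% and 6.18% to 11.2%. Since 8 of the 12 markers in the sum themselves differed between the groups, in both directions, these shares are not levels per endothelial cell. The part of cell composition in these results was not tested.

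ADGRF5, also called GPR116, is known for control of surfactant in lung and of vessel development in mice. It lies at chr6:46852512-46954943 on the minus strand. It was counted at 863, 640, 962 and 1005 CPM in iEC and at 488, 939, 1126 and 436 CPM in iREC. The groups overlap, since iREC D and E lay among or above the iEC samples and iREC C and F below all of them. The means of 868 ± 163 and 747 ± 339 CPM (SD, n = 4 each) gave a log2 fold change of -0.22 ± 0.31 (SE), with a 95% interval from -0.91 to 0.48. Without iREC F it was -0.03. The interval spans moderate differences in both directions, so these samples do not show that the groups are alike.

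ADGRE5, also called CD97, is a receptor for CD55 found on leukocytes and many other cells. It lies at chr19:14380501-14408725 on the plus strand. It was counted at 10.01, 10.1, 11.0 and 13.1 CPM in iEC and at 5.82, 10.1, 9.47 and 17.0 CPM in iREC. The iREC samples spread on both sides of the iEC samples, with iREC C lowest and iREC F highest of all 8. The means were 11.0 ± 1.43 and 10.6 ± 4.68 CPM (SD, n = 4 each), with a log2 fold change of -0.06 ± 0.30 (SE) and a 95% interval from -0.74 to 0.62. It was -0.39 without iREC F and 0.14 without iREC C. Of the 50-base words of its transcripts, 12.3% also occur in ADGRE2, so counts of this pair may have been split between them.

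Per length, ADGRF5 led in both groups, and the ranks below it changed. In iEC the mean FPKM was 130 ± 26.3 for ADGRF5, 82.0 ± 10.8 for ADGRL4, 24.0 ± 3.36 for ADGRL2 and 20.3 ± 4.66 for ADGRG1 (SD, n = 4). ADGRF5 and ADGRL4 overlapped, and in iEC D the FPKM of ADGRL4 was the higher, 97.6 against 94.4. ADGRL2 and ADGRG1 also overlapped, as did ADGRG6 at 2.54 ± 1.96 and ADGRE5 at 2.04 ± 0.31 FPKM, followed by ADGRL1 at 0.917 ± 0.274, ADGRL3 at 0.216 ± 0.110 and ADGRG3 at 0.0212 FPKM.

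In iREC the mean FPKM was 110 ± 49.4 for ADGRF5 and 82.7 ± 17.6 for ADGRG6, which overlapped, then 34.5 ± 6.79 for ADGRL2 and 33.5 ± 11.7 for ADGRL4, which also overlapped. ADGRL1 followed at 3.53 ± 0.661 and ADGRE5 at 1.94 ± 0.871 FPKM, with overlap, and then ADGRG1 at 0.660 ± 0.161 and ADGRL3 at 0.562 ± 0.112 FPKM, again with overlap. ADGRG3 was listed at 0. ADGRG6 was thus at rank 5 of the 9 in iEC and rank 2 in iREC, and ADGRG1 at rank 4 and rank 7. CPM per kilobase gave the same ranks in both groups, but it uses the same counts and gene lengths as the FPKM and is no separate check.

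The FPKM of all 28 family genes in the table summed to 260 to 301 in iEC (275 ± 19.1, SD, n = 4) and to 223 to 392 in iREC (317 ± 72.9, SD, n = 4), which overlap. The 9 members made up 92.5% to 96.8% of that sum in iEC and 78.5% to 87.5% in iREC. The mean share of ADGRL4 was 30.0% in iEC and 10.4% in iREC, and that of ADGRG1 was 7.32% and 0.212%. The share of ADGRG6 was 0.891% in iEC and 26.2% in iREC, where it ran only from 24.7% to 27.7% over the 4 samples. Outside the members, ADGRA2 held 2.96% in iEC and 13.3% in iREC.

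**Figure D2:**
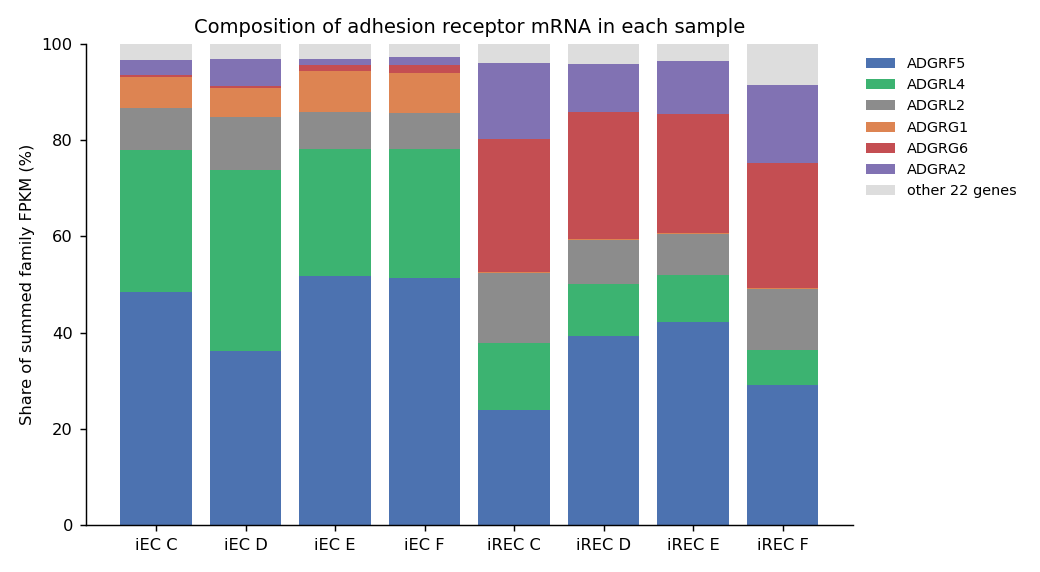
Share of each receptor in the summed FPKM of the 28 adhesion receptor genes, in percent, as a stacked bar for each of the 8 samples, with the 22 less abundant genes in grey. ADGRG6 takes 24.7% to 27.7% of the bar in iREC samples and 0.323% to 1.64% in iEC samples, while ADGRF5 and ADGRL4 make up most of each iEC bar.

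Of the 33 genes of the human family by nomenclature, 5 (ADGRE1, ADGRE3, ADGRE4P, ADGRA1 and ADGRG7) were not analysed here and 18 passed the filter. Of these 18, 12 were called, 9 higher and 3 lower in iREC, with a median log2 fold change of 0.77, and 6 of the 12 are members chosen on this contrast. Among the 10 tested genes that are not members, 6 were called, 5 higher and 1 lower, beside 25.0% of all tested genes, 13.2% higher and 11.7% lower. The authors' deposited table gives an adjusted p under 0.05 for 9 of the 19 listed family genes that are not members. The share of all genes under that threshold in the authors' comparison was not computed, so nothing is read from this count.

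ADGRA2, also called GPR124, joins RECK in a receptor complex for Wnt7 ligands. It rose from a mean of 56.8 ± 35.1 to 292 ± 43.4 CPM (SD, n = 4 each), a log2 fold change of 2.36 ± 0.40 (SE) with an edgeR adjusted p of 0.00258. The iEC samples C and D, at 61.4 and 104 CPM, lay above E and F, at 25.0 and 36.4 CPM, but did not form distinct pairs. For ADGRG6, C and D lay below E and F. All ADGRA2 values in iREC lay above those in iEC, at 255 to 341 CPM. BRF2 overlaps 1629 bases of ADGRA2 on the opposite strand and averaged 8.93 and 7.92 CPM. ADGRA3, a relative with less known function, rose with a log2 fold change of 0.62 ± 0.17 (SE) and an edgeR adjusted p of 0.0266. That call was lost without iREC C, D or F, at edgeR adjusted p values of 0.0613, 0.0714 and 0.0535.

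ADGRE2, a myeloid receptor near ADGRE5, fell with a log2 fold change of -2.96 ± 0.38 (SE) and an edgeR adjusted p of 0.000654, from 33, 43, 32 and 22 counts in iEC to 4, 2, 5 and 5 in iREC. It shares sequence with ADGRE5, as given above, and ZNF333 overlaps 1354 of its bases on the opposite strand, at 10.13 CPM in iEC and 12.02 CPM in iREC. The leukocyte markers summed to 15.2 to 33.7 CPM in iEC and 4.26 to 8.98 CPM in iREC over the 9 of 12 that were in the table. Most of that sum was FCER1G, at 14.7 to 33.3 CPM in iEC. PTPRC, the marker shared by nearly all leukocytes, had 0 counts in all iEC samples and 99 counts over the iREC samples. The part of leukocyte RNA in the ADGRE2 result was not tested.

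CELSR1, CELSR2 and CELSR3 are large cadherin receptors of planar cell polarity. CELSR3 rose from 11.5 ± 3.01 to 21.8 ± 4.53 CPM (SD, n = 4 each), a log2 fold change of 0.92 ± 0.23 (SE) with an edgeR adjusted p of 0.0179. CELSR1 and CELSR2 passed narrowly, with log2 fold changes of 2.10 ± 0.67 and 2.51 ± 0.80 (SE) and edgeR adjusted p values of 0.0475 and 0.0479. Both turned on iREC F, at 29.7 CPM for CELSR1 against 2.42 to 9.71 in the other iREC samples, and at 17.5 CPM for CELSR2 against 0.851 to 4.21. Without iREC F the log2 fold changes were 1.14 and 1.22 and the edgeR adjusted p values 0.104 and 0.116. Leaving out iREC D or E or any iEC sample also lost both calls, at edgeR adjusted p values of 0.0551 to 0.109 for CELSR1 and 0.0519 to 0.105 for CELSR2, and limma-voom called neither. The library iREC F also had the highest epithelial marker sum, most of it KRT8 and KRT18, and the part of this in the result was not tested. ADGRF3, ADGRB2, ADGRB3 and ADGRV1 did not pass, at edgeR adjusted p values of 0.117, 0.660, 0.349 and 0.845.

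**Figure D3:**
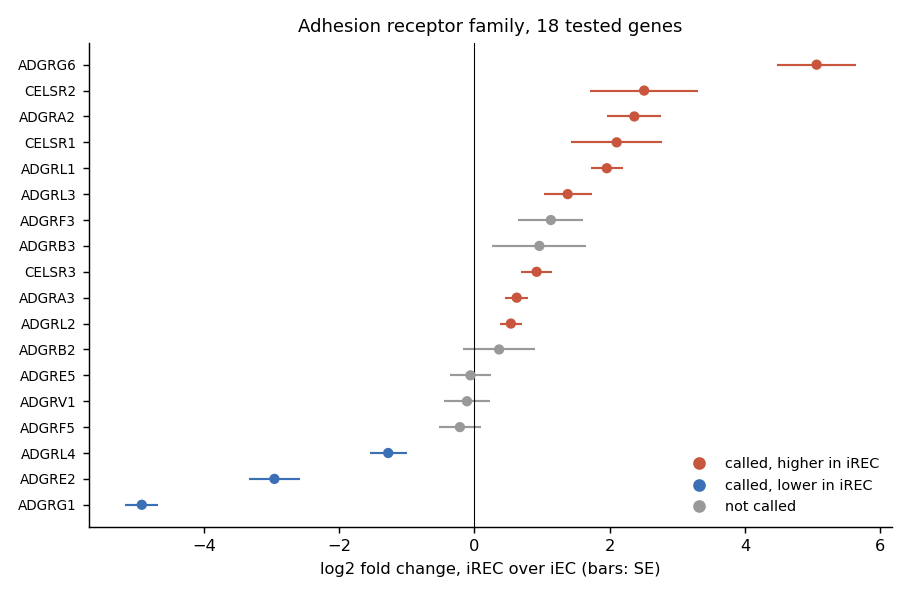
Log2 fold change of iREC over iEC for the 18 tested adhesion receptor genes, with bars of 1 SE, red for genes called higher, blue for genes called lower and grey for genes not called. ADGRG6 at 5.06 and ADGRG1 at -4.92 lie at the ends, the values of the 8 members are those they were chosen on, and ADGRF5 and ADGRE5 lie near 0.

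Known binding partners were examined as a list of 38 genes, of which 26 were tested and 11 called, 7 higher and 4 lower in iREC, 42.3% beside 25.0% of all genes. The median log2 fold change was 0.31. For ADGRG6, whose own level was higher in iREC, the collagen IV chains COL4A1 and COL4A2 of the basement membrane rose as well. COL4A1 averaged 2783 ± 908 in iEC and 6567 ± 469 CPM in iREC (SD, n = 4 each), 2.36-fold higher with an edgeR adjusted p of 0.00725. COL4A2 rose by a ratio of 1.79 with an edgeR adjusted p of 0.0338, a call lost without iEC C or D or without iREC C, D or E (edgeR adjusted p 0.0536 to 0.0889). The collagen IV chains COL4A5 and COL4A6 did not pass, at edgeR adjusted p values of 0.0914 and 0.984, and COL4A3 and COL4A4 were below the filter. LAMA2, the chain of laminin 211, and PRNP did not pass either, at edgeR adjusted p values of 0.572 and 0.704.

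For ADGRG1, lower in iREC, collagen III (COL3A1) and transglutaminase (TGM2) did not pass, at edgeR adjusted p values of 0.0863 and 0.120. COL3A1 varied widely, at 40.5 ± 54.9 CPM in iEC and 504 ± 763 CPM in iREC (SD, n = 4 each). Its iREC values ran from 32.5 to 1641 CPM, and it is also on the list of mural and mesenchymal markers. CD9, a tetraspanin listed as a partner of ADGRG1, did not pass (edgeR adjusted p 0.0688). The tetraspanin CD81, which associates with ADGRG1, fell by a log2 fold change of -0.38 ± 0.12 (SE) with an edgeR adjusted p of 0.0446, but leaving out any sample other than iEC C lost the call (edgeR adjusted p 0.0521 to 0.117). For ADGRE5, which did not differ beyond its spread, CD55 fell from 125 ± 24.6 to 61.3 ± 14.5 CPM (SD, n = 4 each), with an edgeR adjusted p of 0.00595. THY1, another of its ligands, was 48.4 ± 28.8 and 14.3 ± 6.39 CPM (SD, n = 4 each), with an edgeR adjusted p of 0.0216 and overlapping groups. This call was lost without iEC C, iREC D or iREC E, at edgeR adjusted p values of 0.0508, 0.0662 and 0.0592.

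The integrin chain ITGAV, which also binds ADGRE5, rose from 117 ± 14.5 to 400 ± 27.7 CPM (SD, n = 4 each), 3.42-fold, with an edgeR adjusted p of 3.78e-05. Its fellow chains ITGA5, ITGB1 and ITGB3 did not pass, at edgeR adjusted p values of 0.507, 0.0505 and 0.266. FNDC4, a secreted ligand of ADGRF5, fell from 10.7 ± 4.31 to 4.16 ± 0.525 CPM (SD, n = 4 each), with an edgeR adjusted p of 0.00938. For ADGRA2, RECK did not pass (edgeR adjusted p 0.459). WNT7B did not pass the filter. It had 52, 2, 80 and 49 counts in iEC C to F, with iEC D under the floor, and 0 in every iREC sample. Against the iEC mean of 2.94 ± 1.97 CPM (SD, n = 4), iREC was at least 14.9-fold lower at the floor of 3 counts per library.

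Among latrophilin ligands, FLRT2, which bridges latrophilins and guidance receptors, rose 4.997-fold, from 24.3, 17.5, 16.5 and 37.2 CPM in iEC to 194, 84.6, 123 and 76.6 CPM in iREC (edgeR adjusted p 0.00174). No iREC sample reached down to the iEC range. TENM2 and TENM4, the teneurins that were called, had edgeR adjusted p values of 0.00865 and 0.0254. Their iREC levels were uneven, with TENM2 at 1.70, 20.7, 7.94 and 114 CPM and TENM4 at 1.77, 4.996, 2.99 and 36.4 CPM, and iREC F highest in both. In iEC TENM2 did not exceed 0.644 CPM and TENM4 did not exceed 1.42 CPM. Without iREC F the log2 fold change of TENM2 fell from 6.77 to 4.93 (edgeR adjusted p 0.00812) and that of TENM4 from 4.01 to 2.19 (edgeR adjusted p 0.0410). NRXN3, a neurexin, rose with an edgeR adjusted p of 0.0262, and its log2 fold change was 3.09, or 1.84 without iREC F. The calls of TENM2, TENM4 and NRXN3 were lost with limma-voom. That of TENM4 was also lost without iEC C, D or F (edgeR adjusted p 0.0591 to 0.0599), and that of NRXN3 without any iEC sample (edgeR adjusted p 0.0546 to 0.0619).

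The G proteins and effectors downstream formed a list of 36 genes with 31 tested, and 14 were called, 7 higher and 7 lower, 45.2% beside 25.0% of all genes. The median log2 fold change was 0.02, as over all tested genes. GNA12, an alpha subunit of the G proteins, fell from 165 ± 13.7 to 98.4 ± 17.7 CPM (SD, n = 4 each), with an edgeR adjusted p of 0.00556. Its close relative GNA13 was 104 ± 2.74 and 96.3 ± 3.84 CPM (SD, n = 4 each), with an edgeR adjusted p of 0.391.

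Among subunits of the inhibitory class, GNAI2 fell from 1318 ± 327 to 597 ± 76.8 CPM (SD, n = 4 each), with an edgeR adjusted p of 0.00222. GNAI3 also fell, from 202 ± 12.4 to 152 ± 8.78 CPM (SD, n = 4 each, edgeR adjusted p 0.0166). GNAI1 did not pass (edgeR adjusted p 0.274). GNAO1, of the same class, went the other way, from 0.240 ± 0.137 to 8.85 ± 2.96 CPM (SD, n = 4 each), with an edgeR adjusted p of 8.87e-05. Its iEC values, at 0.143 to 0.442 CPM, lay near the floor of detection. The stimulatory subunit GNAS was 912 ± 124 and 827 ± 109 CPM (SD, n = 4 each), with an edgeR adjusted p of 0.520. Of the cyclases that make cyclic AMP, ADCY4 rose 4.57-fold from 16.3 ± 3.07 to 74.4 ± 35.7 CPM (SD, n = 4 each), with an edgeR adjusted p of 0.00133. ADCY6 had a ratio of means of 72.6 to 56.7 CPM and an edgeR adjusted p of 0.0433, a call that leaving out any sample but iEC F ended (edgeR adjusted p 0.0505 to 0.130). ADCY9 rose 2.57-fold (edgeR adjusted p 0.00595), and ADCY1, ADCY3 and ADCY7 did not pass. Of the catalytic subunits of protein kinase A, PRKACB fell 4.17-fold (edgeR adjusted p 8.87e-05) and PRKACA did not pass (edgeR adjusted p 0.113). GNAQ and GNA14, subunits that act through phospholipase C, rose with ratios of 1.43 and 5.68 and edgeR adjusted p values of 0.0128 and 0.0121. GNA14 varied from 7.10 to 56.8 CPM in iEC and from 84.6 to 175 CPM in iREC.

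**Figure D4:**
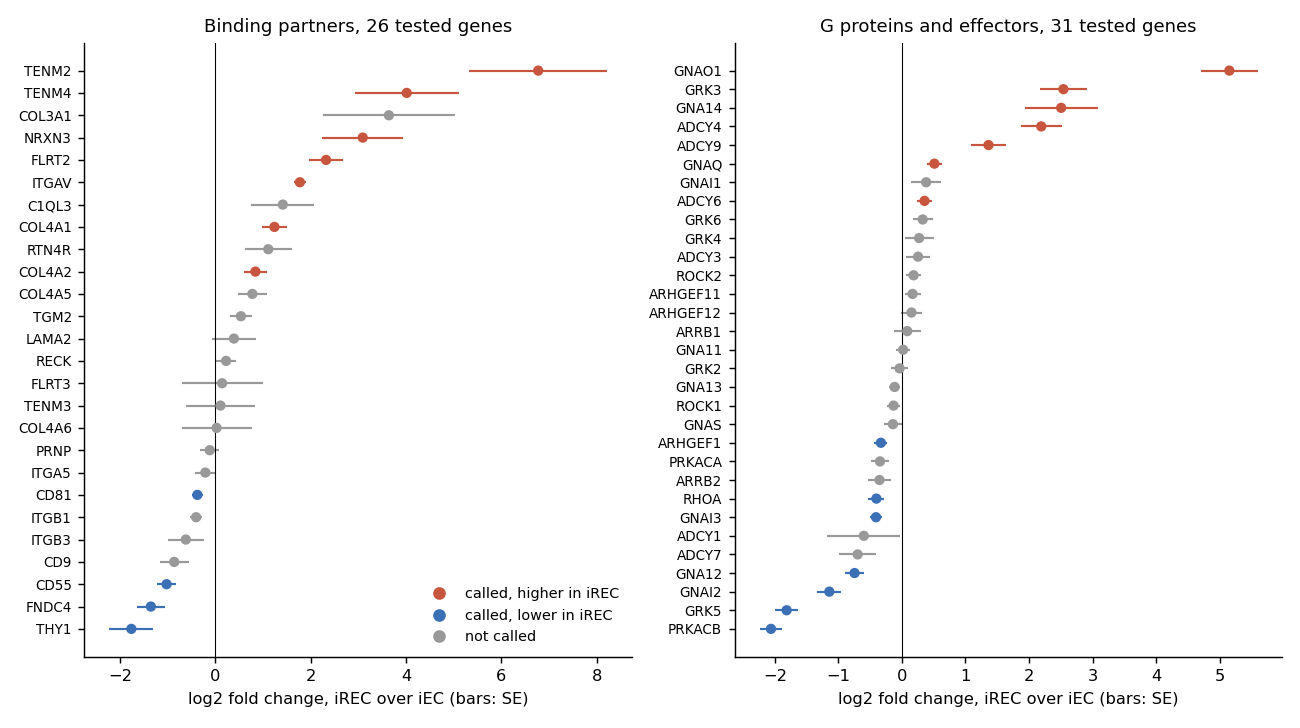
Log2 fold change of iREC over iEC for the 26 tested partner genes (left) and the 31 tested G protein and effector genes (right), with bars of 1 SE, red for genes called higher, blue for genes called lower and grey for genes not called. On the left ITGAV, at 1.77, has a short bar and TENM2, at 6.77, a long one, and on the right 7 genes were called in each direction.

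For the 3 members with the highest mean FPKM, the protein-coding genes with the most similar profile over the 8 samples were sought among 9524 genes, by the root mean square difference of log2 CPM after each gene was centred on its own mean. For ADGRL4 these were CHST7 (0.117), ARHGEF15 (0.162) and EGFL7 (0.166), the last an endothelial matrix protein. For ADGRG6 they were MAOA (0.328), IGFBP7 (0.382) and IL7R (0.393), with log2 fold changes of 5.27, 5.30 and 5.34. For ADGRF5 they were EVA1A (0.199), FAM214A (0.218) and KIAA1217 (0.233). The difference grows with the size of a gene's own change, so these values are not compared between the members.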

How the data were processed

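The authors deposited 1 table with read counts per gene for 8 samples, FPKM (their normalized counts per gene length), and log2 fold changes and p-values of their own comparison, per the file headers. The gene lengths it lists are in bases, per the file headers. The tools fastp and HISAT2 2.0.5 and the build hg38 are named per the submitters' processing notes; the counting program, its strand setting and the annotation are not given in the sources used here. Poly-A RNA was made into dUTP libraries, per the labels' protocols. All 30386 gene identifiers had the start and end of GENCODE 29, on GRCh38; coordinates are 1-based.

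The deposited counts were filtered with filterByExpr, scaled by TMM and tested with the quasi-likelihood test of edgeR 4.0.16, group as the only term, with Benjamini-Hochberg adjustment over all 15330 tested genes and an adjusted p threshold of 0.05. Standard errors and intervals of fold changes carry the spread between samples; floors cover counting error only. The test was also tried on simulated data. The labels do not say whether a letter marks a pair, so the letters were not used as pairs. Deviations of same-letter samples had r of 0.168 for C, -0.0794 for D, 0.0291 for E and 0.250 for F. Samples of unlike letters had r from -0.221 to 0.178. These ranges overlap, so the check does not settle whether the letters are pairs. Alternatives were other scalings and filters, DESeq2 1.42.0, limma-voom (limma 3.58.1), the letter as a block, and the omission of single samples. The members and lists were chosen with earlier results of these data known. Genes were named by rule: all members; tested family genes; in the partner and effector lists up to 4 called genes per direction with the highest mean FPKM, plus partners paired with a member; and for 3 members the 3 nearest profiles of mean at least 10 CPM. ADGRG5, GNA13, GNAS, GNAO1, GNAI1, GNAI3, ADCY1, ADCY3, ADCY7, ADCY9, PRKACA and PRKACB lie outside the rule and were named after their values were seen. RefSeq promoters were matched for 6 of the 9 members, not for ADGRL1, ADGRE5 and ADGRG3. A result on 1 group of effector genes that the rule would name is not reported here.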

Additional observations from a re-analysis of the deposited data

Results flagged for a closer look

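Within each group the lowest or highest sample was checked for distance from the other samples over 38 gene and group combinations, of which chance alone would pick out about 1 in 20. A single one stood apart. In iREC F the log2 CPM of ADGRL4 was 5.907, against 7.165 for the next sample and 7.279 for the highest, a gap of 0.917 of the group's range, which is above Dixon's 95% critical share for 4 samples. That library also had the lowest endothelial and the highest epithelial, mural and pluripotency marker sums of all 8, and the part of these in the value was not tested.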

How the results depend on the processing

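The log2 fold changes of the 8 tested members kept their direction in all 15 alternatives run, except ADGRE5, whose sign was opposite in 2. ADGRG1 ranged from -5.06 to -4.79, ADGRG6 from 4.75 to 5.57, ADGRL4 from -1.40 to -1.05, ADGRF5 from -0.48 to -0.03, ADGRL1 from 1.85 to 2.18, ADGRL2 from 0.40 to 0.64, ADGRL3 from 1.19 to 1.79 and ADGRE5 from -0.39 to 0.14. ADGRG1, ADGRG6, ADGRL1 and ADGRL4 were called in all 15 alternatives, ADGRL3 in all but that without iEC E, and ADGRL2 in 7. The members were chosen on the same samples and contrast, so these calls are a description and no test of a difference. The check of the letters does not settle whether the replicate block is a pairing. With that block, 8 family genes (5 higher, 3 lower), 10 partners, 11 effectors and 3334 of all genes were called. The family calls of ADGRL2, ADGRA3, CELSR1 and CELSR2 were lost with it. So were the partner calls of COL4A2, CD81, TENM4 and NRXN3 and, among the effectors named here, that of ADCY6. The partners COL3A1, COL4A5 and ITGB3, which did not pass above, were called with the block. Over all genes the count ran from 2660 without iREC D to 4664 with DESeq2, and over the family from 8 to 13. Depth limits ADGRG3, ADGRG5 and ADGRE2, which rest on few reads, and 4 samples per group limit every call near the threshold.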
